A study of Homo sapiens with 6 samples.

Results

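The genes described here are the J proteins of the DNAJA, DNAJB and DNAJC families, the BAG family and the cytosolic HSP90 pair, measured in LM3 cells, an established human hepatocellular carcinoma (HCC) cell line. They were chosen by gene symbol from the deposited table, in which 49 of 33007 genes belonged to the set. These are 4 DNAJA, 11 DNAJB, 26 DNAJC, 6 BAG and 2 HSP90 genes, and 1 further DNAJB gene is not analysed here. RNA was sequenced from 3 vector control samples and from 3 samples with stable ZNF706 knockdown, made with a lentiviral short hairpin RNA and puromycin selection. ZNF706 encodes a zinc finger nuclear protein, and the comparison asked how the transcriptome of LM3 cells differs when less of it is made. The labels do not say which hairpin was sequenced or whether the samples of a group are separate cultures, so p-values measure only the spread between these samples, which may be technical.

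J proteins, also called HSP40 proteins, carry a J domain that makes HSP70 chaperones hydrolyse ATP and hold on to an unfolded protein. BAG proteins bind the ATPase domain of HSP70 and help it release its nucleotide and its client, and HSP90 takes over many of these clients, among them kinases and steroid receptors, for the last steps of their folding. The HSP90 genes thus encode chaperones in their own right, whereas the J and BAG proteins are co-chaperones, and many DNAJC proteins use HSP70 for tasks other than folding, such as protein import, vesicle uncoating or splicing.

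The total counts were 62684076, 64713764 and 63054445 in controls and 68548419, 65861994 and 69057423 after knockdown, so every knockdown sample was the deeper. CPM values (counts scaled to library size, with TMM factors) are compared between samples for the same gene, and FPKM values (fragments scaled to gene length and library size) between genes. Among liver and HCC markers, KRT18 (258 to 283 FPKM) and KRT8 (190 to 207 FPKM) were abundant in all 6 samples. ALB did not exceed 3.57 FPKM, AFP 1.09 FPKM and HNF4A 0.23 FPKM. ALB had 189, 899 and 882 counts in control replicates 1 to 3 and 587, 635 and 138 in knockdown replicates 1 to 3, and GPC3, another HCC marker, had 6, 122 and 166 counts and 127, 101 and 0. Control replicate 1 and knockdown replicate 3 were thus the lowest for both genes.

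ZNF706 (ENSG00000120963, chromosome 8, 101177878 to 101205682, minus strand) had CPM values of 51.9, 55.1 and 54.7 in controls and 33.5, 30.8 and 32.8 after knockdown. The groups did not overlap, and the log2 fold change (log2FC, ± its standard error) was -0.73 ± 0.050, with an adjusted p of 3.7e-05. Each log2FC is knockdown over control from the quasi-likelihood fit of edgeR, each p was adjusted by the Benjamini-Hochberg method over 18390 genes, and a gene is called at an adjusted p below 0.05. In bulk RNA, fewer cells of a type and less RNA per cell cannot be told apart.

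Of the 49 genes, 47 passed the filter on low counts and 17 (36.2%) were called, 13 lower (27.7%) and 4 higher (8.51%) in the knockdown. Among all 18390 genes tested, 4192 (22.8%) were called, 2286 lower (12.4%) and 1906 higher (10.4%). The share of all genes called was larger with a minimum mean count of 50. That setting called 17 of 44 genes of the set and 4455 of 14132 genes in all. The median log2FC was -0.053 over the 47 genes and 0.0095 over all genes. With scaling by library size alone both medians were higher, at 0.00079 and 0.063, as they were with limma on FPKM, at 0.0038 and 0.052. The called genes that were lower were DNAJC3, DNAJB1, DNAJB11, DNAJB4, DNAJC1, DNAJC9, DNAJA1, BAG3, DNAJC5, DNAJC2, BAG1, BAG2 and DNAJB14, and those higher were DNAJC16, DNAJC19, DNAJA3 and DNAJC7. HSP90AA1 and HSP90AB1 were not called. Scaling by library size alone gave 11 lower and 7 higher calls among the 47, and over all genes it raised the share of calls that were higher from 45.5% to 64.4%, while limma on FPKM gave 62.4%. Without knockdown replicate 2, the number of genes called in the whole table was 2648. Among the 47, the higher calls fell to 2 without control replicate 1 or 3 and to 1 without control replicate 2, knockdown replicate 2 or knockdown replicate 3.

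The values of control and knockdown samples did not overlap for 23 of the 47 genes (48.9%) and for 39.4% of all genes tested. With the criteria of the study's methods, taken here as an unadjusted p below 0.05 with a log2FC of 0.3 or more in either direction, 7 of the genes were lower and 1 was higher (17.02%, against 15.5% of all genes tested). These were DNAJC3, DNAJB1, DNAJB11, DNAJB4, DNAJC1, DNAJC9 and DNAJA1 on the lower side and DNAJC16 on the higher side. BAG3, at -0.2998, fell just short of the limit on fold change. With DESeq2, the tool the study's methods name, BAG3 was at -0.3019 and 9 genes met the criteria. By family, with calls again at an adjusted p below 0.05, 1 of 4 DNAJA genes was lower and 1 higher. Of 9 tested DNAJB genes, 4 were lower and none higher, and of 26 DNAJC genes, 5 were lower and 3 higher. Among all genes tested, 12.4% were called lower and 10.4% higher. The role groups described next hold at most 10 tested genes each, and whether a group differs from these shares was not tested.

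**Figure D1:**
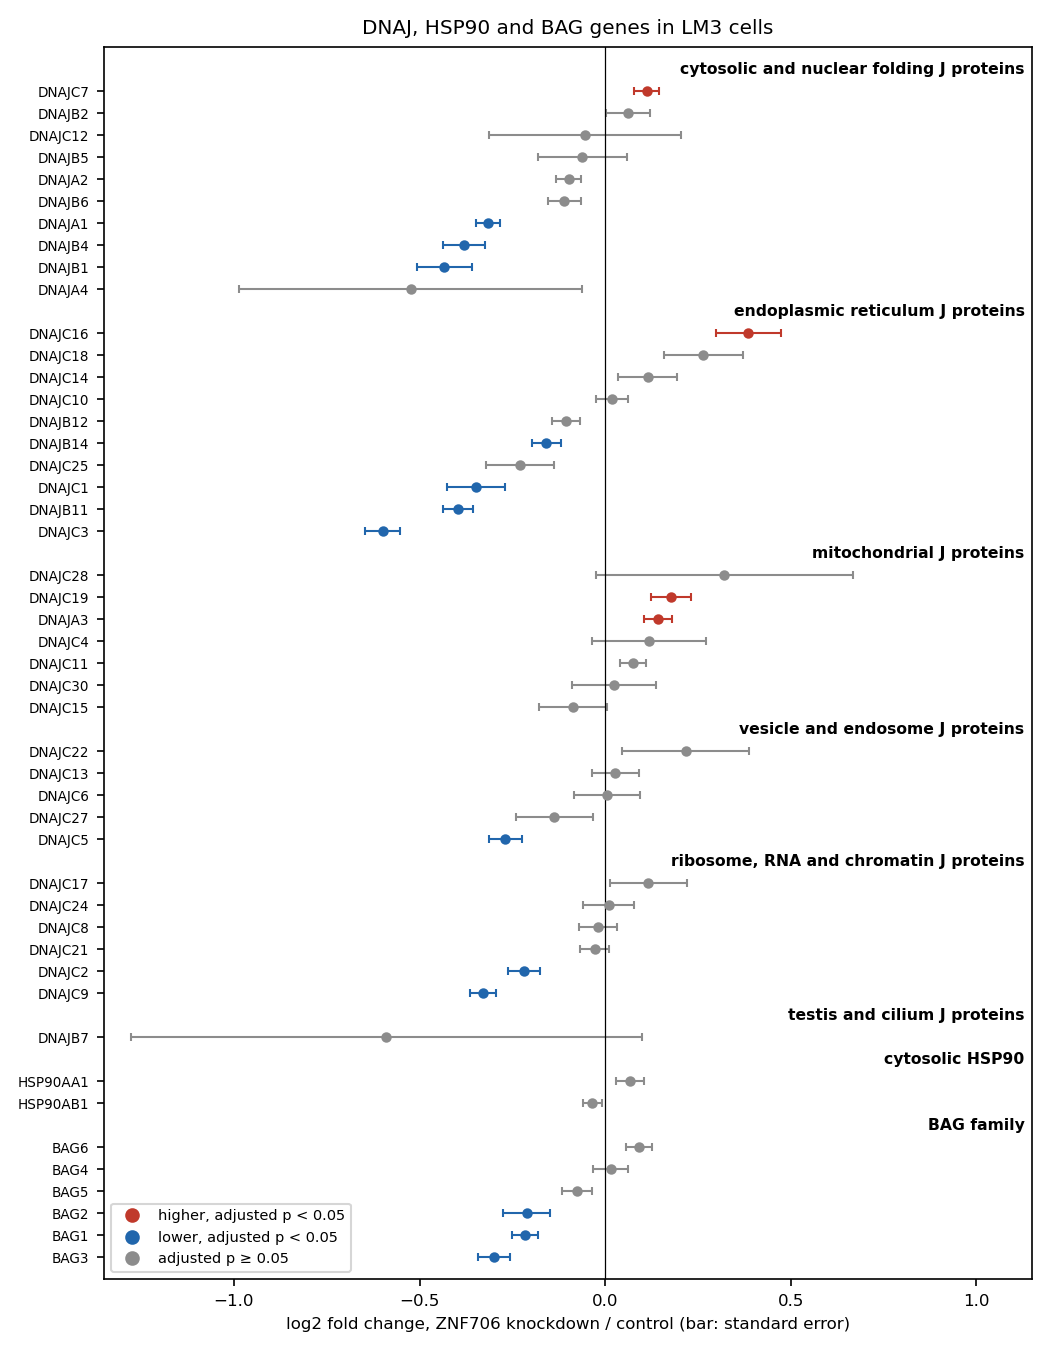
The log2FC (x axis, knockdown over control) of each of the 47 tested genes is shown as a point with its standard error as a bar, grouped by role. Among the called genes DNAJC3 lies lowest at -0.60 and DNAJC16 highest at 0.39, and the wide bars belong to genes with few counts such as DNAJA4 and DNAJB7.

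The J proteins that fold proteins in the cytosol and nucleus held 3 lower genes and 1 higher gene among 10 tested. DNAJB1 (ENSG00000132002, chromosome 19, 14514769 to 14529308, minus strand), the main heat-inducible partner of HSP70 in the cytosol, had CPM values of 209.6, 209 and 219 in controls and 139, 156 and 178 after knockdown. All 3 knockdown samples were below all 3 control samples, with knockdown replicate 3 the nearest to the controls. The log2FC was -0.43 ± 0.075 (adjusted p = 0.0029), and it ranged from -0.53 to -0.35 when each sample was left out. DNAJB4 (ENSG00000162616, chromosome 1, 77979175 to 78017964, plus strand), a close relative of DNAJB1, had 79.5, 78.8 and 84.2 CPM in controls and 57.7, 61.3 and 67.4 CPM after knockdown. The groups did not overlap and knockdown replicate 3 was again the highest of its group. Its log2FC was -0.38 ± 0.056 (adjusted p = 0.0013).

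DNAJA1 (ENSG00000086061, chromosome 9, 33025273 to 33039907, plus strand), a broad-range J protein that hands clients to HSP70, was the most abundant J protein here, at 160.3 FPKM on average in controls. Its CPM values were 487, 493 and 508 in controls and 393, 393 and 409 after knockdown. The groups were clearly apart, with a log2FC of -0.32 ± 0.032 (adjusted p = 0.00021). Its relative DNAJA2 had 97.8, 102 and 98.4 CPM and 92.9, 92.1 and 93.5 CPM in that order of groups, which did not overlap, but its log2FC of -0.10 was not called (adjusted p = 0.065). DNAJB6, a J protein known for holding back protein aggregation, had a log2FC of -0.11 (adjusted p = 0.11), and 4.22% of the reads on the gene and its pseudogene copies were on the copies. DNAJA4 had only 14 to 42 counts in a sample, and its log2FC of -0.52 had a standard error of 0.46 (adjusted p = 0.48).

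DNAJC7 (ENSG00000168259, chromosome 17, 41976421 to 42021376, minus strand), which binds both HSP70 and HSP90 through tetratricopeptide repeats, was the cytosolic gene that was higher. Its CPM values were 116, 114 and 114 in controls and 121, 127 and 123 after knockdown. They did not overlap, with a log2FC of 0.11 ± 0.034 (adjusted p = 0.043). The call was lost when any sample other than knockdown replicate 1 was left out and with no filter, and the adjusted p ranged from 0.0083 to 0.16 over all alternatives. The remaining cytosolic genes, DNAJB2, DNAJB5 and DNAJC12, were not called and had log2FC values from -0.06 to 0.06.

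The J proteins of the endoplasmic reticulum held 4 lower genes and 1 higher gene among 10 tested, and the largest change of the whole set. DNAJC3 (ENSG00000102580, chromosome 13, 95677139 to 95794988, plus strand), also known as p58IPK, works with the HSP70 of this compartment, HSPA5, and restrains the kinase PERK. It had 116, 126 and 121 CPM in controls and 81.2, 83.1 and 76.0 CPM after knockdown. The knockdown samples lay far below the controls, and here knockdown replicate 3 was the lowest of all. The log2FC was -0.60 ± 0.046 (adjusted p = 6.1e-05) and it ranged from -0.63 to -0.56 when each sample was left out.

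DNAJB11 (ENSG00000090520, chromosome 3, 186567403 to 186585800, plus strand), the abundant luminal J protein that delivers secretory proteins to HSPA5, had 239, 242 and 247 CPM in controls and 176, 182 and 195 CPM after knockdown. The groups did not overlap, and the log2FC was -0.40 ± 0.042 (adjusted p = 0.00024). DNAJC1 (ENSG00000136770, chromosome 10, 21756548 to 22003730, minus strand), a membrane-bound J protein, had 18.6, 18.8 and 18.6 CPM and 14.1, 14.4 and 15.6 CPM in that order of groups. Its control samples were nearly identical and its knockdown samples all lower, with a log2FC of -0.35 ± 0.078 (adjusted p = 0.010). DNAJB14 (ENSG00000164031, chromosome 4, 99896248 to 99946618, minus strand), which helps to clear membrane proteins, had 84.5, 80.0 and 81.1 CPM and 74.8, 71.0 and 74.3 CPM. The log2FC of -0.16 ± 0.038 (adjusted p = 0.016) was small, and the call was lost without control replicate 1, without knockdown replicate 2, with scaling by library size alone and with limma on FPKM (adjusted p from 0.0054 to 0.17 over all alternatives).

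DNAJC16 (ENSG00000116138, chromosome 1, 15526813 to 15592379, plus strand), a membrane-bound J protein with a thioredoxin-like part, went the other way. It had 14.98, 14.6 and 15.8 CPM in controls and 20.1, 17.9 and 21.2 CPM after knockdown, which were all higher. The log2FC was 0.39 ± 0.087 (adjusted p = 0.011), the largest among the 4 higher genes. The 5 genes of this compartment that were not called were DNAJB12, DNAJC10, DNAJC14, DNAJC18 and DNAJC25, with log2FC values from -0.23 for DNAJC25 to 0.26 for DNAJC18. DNAJC10, a disulfide reductase that also uses HSPA5, was at 0.02 with overlapping groups.

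**Figure D2:**
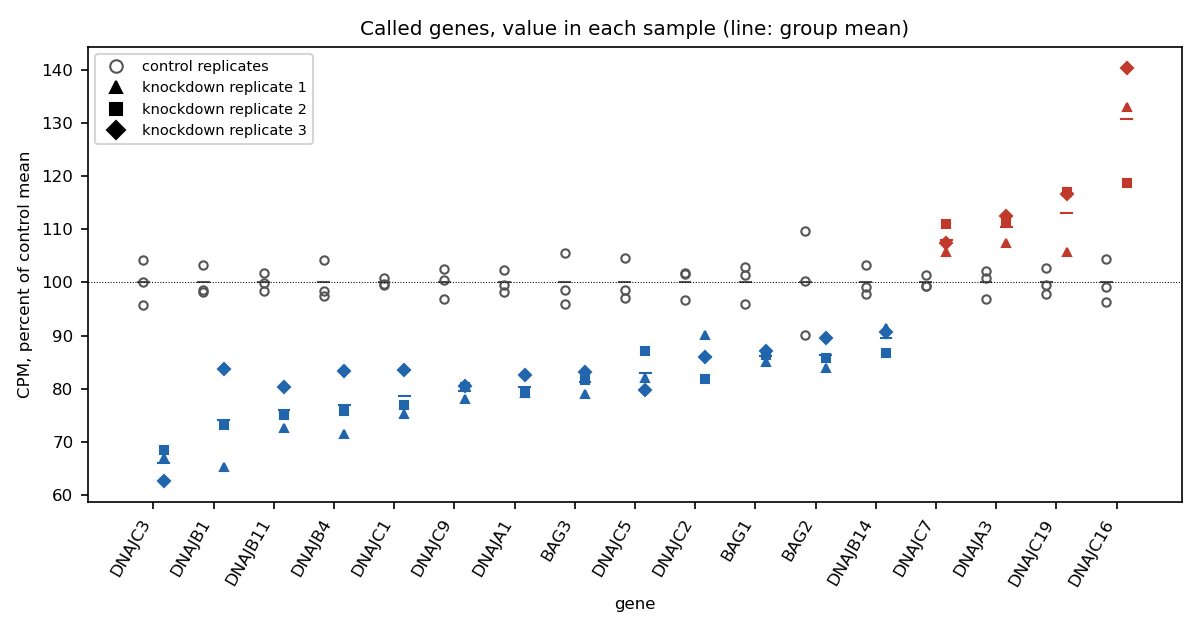
The CPM value of each called gene in each sample (y axis) is given as a percent of its control mean, with circles for the 3 control samples, filled symbols for the 3 knockdown samples and short lines for group means. The group mean of the knockdown samples, as a percent of the control mean, lies lowest for DNAJC3 (samples at 81.2, 83.1 and 76.0 CPM), while the samples of DNAJC7, DNAJA3 and DNAJC19 lie only slightly above their controls.

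None of the 7 mitochondrial J proteins was lower and 2 were higher, against 12.4% lower and 10.4% higher among all genes tested. With 7 genes, whether these counts differ from those shares was not tested. DNAJA3 (ENSG00000103423, chromosome 16, 4425805 to 4456775, plus strand), the mitochondrial relative of DNAJA1, had 109, 108 and 103 CPM in controls and 115, 119 and 120.1 CPM after knockdown. Groups did not overlap, with a log2FC of 0.14 ± 0.037 (adjusted p = 0.021). DNAJC19 (ENSG00000205981, chromosome 3, 180983709 to 180989763, minus strand), a part of the protein import motor of the inner membrane, had 39.4, 37.6 and 38.3 CPM and 40.6, 44.9 and 44.8 CPM, with knockdown replicate 1 nearest to the controls. Its log2FC was 0.18 ± 0.054 (adjusted p = 0.040). Both calls depended on single samples. DNAJA3 was not called without control replicate 2 or 3 or without knockdown replicate 2 or 3 (adjusted p from 0.0053 to 0.083 over all alternatives). DNAJC19 was not called when any sample other than knockdown replicate 1 was left out, nor with no filter, nor when reads on its 3 pseudogene copies were added (adjusted p from 0.013 to 0.15). The other 5 mitochondrial genes had log2FC values from -0.09 for DNAJC15 to 0.32 for DNAJC28, and DNAJC11, a protein of the cristae, was at 0.08 (adjusted p = 0.15) with groups that did not overlap, and was called higher with scaling by library size alone and with limma on FPKM.

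Among 5 J proteins of vesicles and endosomes, DNAJC5 (ENSG00000101152, chromosome 20, 63895126 to 63936031, plus strand), the cysteine string protein of secretory vesicles, was called. Its CPM values were 102, 96.4 and 95.0 in controls and 80.3, 85.3 and 78.2 after knockdown. All knockdown samples were lower, with a log2FC of -0.27 ± 0.045 (adjusted p = 0.0025). The clathrin-uncoating gene DNAJC6 was at 0.01, and DNAJC13, DNAJC22 and DNAJC27 were at 0.03, 0.22 and -0.14 on the log2 scale, all with overlapping groups.

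Among 6 J proteins of ribosomes, RNA and chromatin, 2 were lower. DNAJC9 (ENSG00000213551, chromosome 10, 73183362 to 73245981, minus strand), a chaperone of histones H3 and H4, had 127, 122 and 129.7 CPM in controls and 98.8, 101 and 102 CPM after knockdown. Both groups were tight and apart, with a log2FC of -0.33 ± 0.036 (adjusted p = 0.00030). DNAJC2 (ENSG00000105821, chromosome 7, 103312289 to 103344798, minus strand), which recruits HSP70 to the ribosome, had 87.4, 83.0 and 87.2 CPM and 77.3, 70.3 and 73.8 CPM, again without overlap. Its log2FC was -0.22 ± 0.044 (adjusted p = 0.0060). The splicing-associated DNAJC8, at 43.8 FPKM the most abundant DNAJC gene in controls, had a log2FC of -0.02, and DNAJC17, DNAJC21 and DNAJC24 lay between -0.03 and 0.12.

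The testis and cilium genes were hardly detected. DNAJB13 had at most 14 counts in a sample and DNAJB3 had counts only in control replicate 2, where there were 6, and neither passed the filter. DNAJB7 passed it with 6 to 54 counts, and its log2FC of -0.59 had a standard error of 0.69.

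In the BAG family, 3 of 6 genes were lower and none was higher. BAG3 (ENSG00000151929, chromosome 10, 119651380 to 119677819, plus strand), which is heat-inducible and links HSP70 to small heat shock proteins and to selective autophagy, had 130.0, 134 and 143 CPM in controls and 107, 111 and 113 CPM after knockdown. No knockdown sample reached the controls, with a log2FC of -0.30 ± 0.043 (adjusted p = 0.0011). BAG1 (ENSG00000107262, chromosome 9, 33247820 to 33264720, minus strand), which couples HSP70 to the proteasome, had 386, 408 and 414 CPM and 342, 348 and 350.4 CPM. Its knockdown samples were close to each other and all lower, with a log2FC of -0.22 ± 0.035 (adjusted p = 0.0021). BAG2 (ENSG00000112208, chromosome 6, 57172326 to 57189833, plus strand), an inhibitor of the ubiquitin ligase CHIP, had 107, 119 and 131 CPM and 99.9, 102 and 107 CPM. The lowest control sample lay just above the highest knockdown sample, and the log2FC of -0.21 ± 0.063 (adjusted p = 0.038) was not called when any sample other than control replicate 1 was left out, with no filter, with scaling by library size alone or with limma on FPKM (adjusted p from 0.0036 to 0.13 over all alternatives).

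The other BAG genes were not called. BAG6, a chaperone of membrane proteins on their way to the endoplasmic reticulum, had 299, 307 and 322 CPM in controls and 336, 327 and 325 CPM after knockdown. All knockdown samples were higher, with a log2FC of 0.09 ± 0.036 (adjusted p = 0.10), and it was called with DESeq2, with scaling by library size alone and with limma on FPKM (adjusted p from 0.014 to 0.31 over all alternatives). BAG5 was at -0.08 (adjusted p = 0.23) and BAG4, an inhibitor of death receptor signalling, at 0.01 (adjusted p = 0.87), a value that turned negative without knockdown replicate 1.

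The cytosolic HSP90 genes were the most abundant of the set and showed no called change. HSP90AB1 (ENSG00000096384, chromosome 6, 44246166 to 44253888, plus strand), the constitutive form, had 3118, 3149 and 3254 CPM in controls and 3036, 3098 and 3162 CPM after knockdown. The groups overlapped, with a log2FC of -0.03 ± 0.026 (adjusted p = 0.40) that was 0.02 with scaling by library size alone and 0.01 with limma on FPKM, below the median of all genes in each of these fits. HSP90AA1 (ENSG00000080824, chromosome 14, 102080742 to 102139699, minus strand), the heat-inducible form, had 1924, 1954 and 2133 CPM and 2133, 2083 and 2083 CPM. Control replicate 3 was as high as the knockdown samples, and the log2FC was 0.07 ± 0.038 (adjusted p = 0.25). This value ranged from 0.035 to 0.11 when each sample was left out. HSP90AA1 was called higher without control replicate 3 and with scaling by library size alone (adjusted p from 0.020 to 0.61 over all alternatives). Reads on the numbered copies of these genes made up 0.947% of the total for HSP90AA1 and 0.415% for HSP90AB1.

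Per length, the levels covered a wide range. HSP90AB1 averaged 918 FPKM in controls, HSP90AA1 339 FPKM and DNAJA1 160.3 FPKM, and these 3 were the genes above 100 FPKM. DNAJB1 and BAG6 followed at 50.2 FPKM each and BAG1 at 49.1 FPKM, and these 3 did not differ beyond the spread between control samples. In all, 18 genes lay between 10 and 100 FPKM, and 8 genes were under 1 FPKM. The median control level was 18.8 FPKM for the 13 lower genes, 8.42 FPKM for the 4 higher genes and 5.46 FPKM for the 30 genes tested but not called.

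The FPKM values of all J proteins summed to 559, 556 and 559 in controls and 488, 497 and 515 after knockdown. Control and knockdown values were apart, and the mean of the knockdown samples was 0.896 times that of the controls. This ratio was 0.864 for DNAJA, 0.821 for DNAJB, 0.966 for DNAJC and 0.952 for BAG genes, and 1.03 for the HSP90 pair. The DNAJA sum rested on DNAJA1, and the other 3 DNAJA genes gave a ratio of 1.04. FPKM values carry no TMM scaling, and the median of all genes tested on this scale was itself 1.04-fold higher after knockdown (log2FC 0.052), so the ratios of the HSP90 pair and of these 3 genes lay close to the shift of all genes. The HSP70 genes HSPA8, HSPA1A and HSPA1B, the main cytosolic partners of the J proteins, summed to 1064, 1139 and 1179 FPKM in controls and 670.4, 745 and 851 FPKM after knockdown. Summed J protein FPKM divided by that of these HSP70 genes was thus 0.525, 0.488 and 0.474 in controls and 0.728, 0.667 and 0.605 after knockdown, without overlap. The J protein sum includes genes of the endoplasmic reticulum, mitochondria and vesicles, whereas these HSP70 genes are cytosolic. HSP90AA1 over HSP90AB1 was 0.361, 0.363 and 0.383 in controls and 0.411, 0.393 and 0.385 after knockdown, which also did not overlap but came close. These sums have no test.

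**Figure D3:**
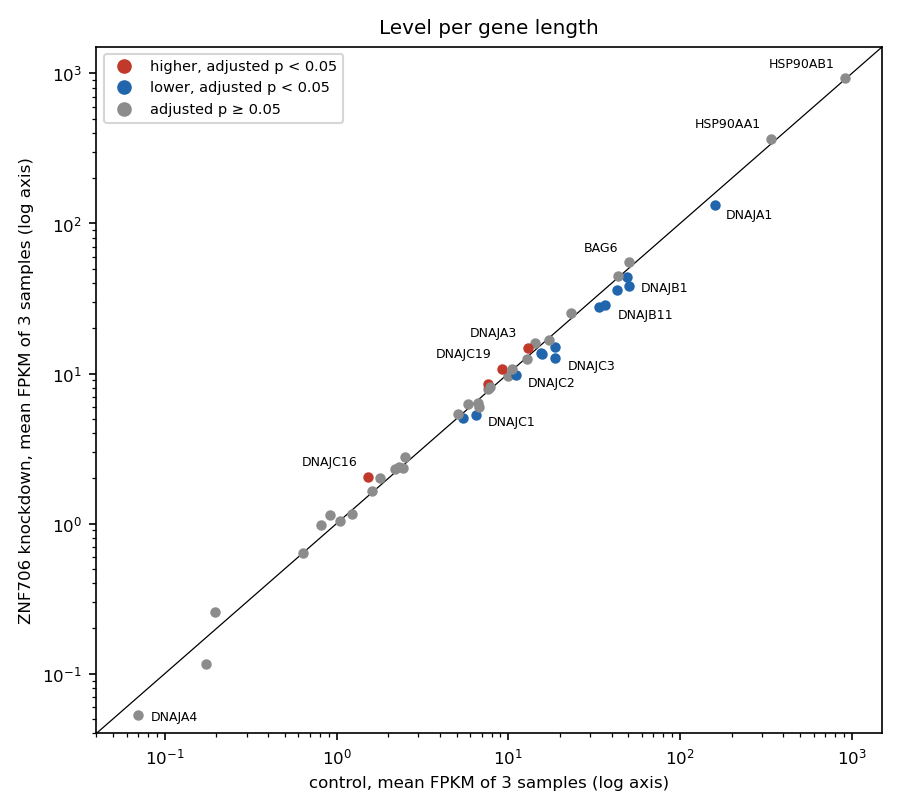
The mean FPKM of the 3 knockdown samples (y axis) is plotted against that of the 3 control samples (x axis) for the 47 tested genes on log axes, with the line of equal levels. The HSP90 genes lie close to the line at the top, and DNAJA1, DNAJB1, DNAJB11 and DNAJC3 lie below it.

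Knockdown replicate 3 was the knockdown sample nearest to the controls in 9 of the 13 lower genes, and knockdown replicates 1 and 2 in 2 each. Control replicate 3 was likewise the highest control for DNAJA1, DNAJB1, DNAJB4, DNAJB11, DNAJC9, BAG1, BAG2 and BAG3. It was not the highest for DNAJB14, DNAJC1, DNAJC2, DNAJC3 and DNAJC5. Among the 4 higher genes, knockdown replicate 1 was nearest in 3 and knockdown replicate 2 in 1. Of the 13 lower genes, 11 were called under every one of the alternatives that were run, the exceptions being BAG2 and DNAJB14. Of the 4 higher genes, only DNAJC16 was called under every one.

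The partners of these genes were described from lists of the chaperone network, 69 genes of which 64 were tested. Of these, 14 (21.9%) were lower and 9 (14.1%) higher, against 12.4% and 10.4% of all genes tested, while scaling by library size alone gave 11 lower and 16 higher, and 5 were higher without control replicate 1, control replicate 3, knockdown replicate 2 or knockdown replicate 3. The HSP70 and HSP110 genes held 7 lower genes among 13 and none higher, led by HSPA8, the constitutive cytosolic HSP70, with a log2FC of -0.65 ± 0.046 (adjusted p = 4.2e-05). The heat-inducible HSPA1A had 643, 711 and 763 CPM in controls and 377, 449 and 565 CPM after knockdown, a log2FC of -0.61 ± 0.12 (adjusted p = 0.0061). As in DNAJB1, knockdown replicate 3 was the nearest to the controls. HSPA1B was at -0.57, but the 2 genes are nearly identical and the counting could have split their reads. HSPH1, an HSP110 that recharges HSP70, was at -0.37 (adjusted p = 0.00038), and HSPA4L, another HSP110, at -0.13 (adjusted p = 0.045). The HSPA4L call held under 5 of 14 alternatives (adjusted p from 0.014 to 0.22).

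In the endoplasmic reticulum, HSPA5, which DNAJC3 and DNAJB11 serve, had 2408, 2611 and 2545 CPM in controls and 2043, 2089 and 2159 CPM after knockdown. Groups did not overlap, with a log2FC of -0.27 ± 0.034 (adjusted p = 0.00067), and HSPA13 of the same compartment was at -0.29 (adjusted p = 0.00077). The HSP90 genes of organelles moved in opposite directions, HSP90B1 of the endoplasmic reticulum at -0.24 (adjusted p = 0.00044) and TRAP1 of mitochondria at 0.25 (adjusted p = 0.00056). GRPEL1 and GRPEL2, the nucleotide exchange factors of mitochondrial HSP70, were both lower, at -0.27 and -0.27 (adjusted p = 0.0052 and 0.0037). Among 4 other J proteins, SEC63, which works at the protein-conducting channel of the endoplasmic reticulum, was lower at -0.14 (adjusted p = 0.033). That call held under 6 of 14 alternatives (adjusted p from 0.0051 to 0.19), and was lost with scaling by library size alone, with no filter, with limma on FPKM, and without any one of the control samples or knockdown replicate 2 or 3.

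Among 22 HSP90 co-chaperones, CHORDC1 and TOMM70 were lower and UNC45A, STUB1, RPAP3 and TOMM34 higher. CHORDC1, a zinc-binding co-chaperone of HSP90, had 123, 127 and 133 CPM in controls and 86.7, 86.9 and 89.6 CPM after knockdown. The groups were far apart, with a log2FC of -0.54 ± 0.040 (adjusted p = 4.7e-05). UNC45A, a co-chaperone of myosin folding, was at 0.26 (adjusted p = 0.0039), and TOMM70, RPAP3 and TOMM34 were at -0.14, 0.14 and 0.13. TOMM70 was not called with scaling by library size alone (adjusted p = 0.062), and RPAP3 and TOMM34 were called under 7 and 8 of 14 alternatives. STUB1, which encodes the ubiquitin ligase CHIP, was at 0.16 (adjusted p = 0.021) and was not called without control replicate 1 or 3 or without knockdown replicate 3, nor with no filter (adjusted p from 0.0048 to 0.078 over all alternatives). Of 5 tested small heat shock proteins, HSPB1 was higher at 0.50 ± 0.056 (adjusted p = 0.00035), HSPB7 was higher at 0.32 and HSPB8, the partner of BAG3, was lower at -0.43 (adjusted p = 0.011 and 0.0061). The HSPB7 call was lost without knockdown replicate 2 (adjusted p from 0.00050 to 0.052 over all alternatives). Of 10 chaperonin genes, HSPD1 and CCT7 were higher, at 0.14 and 0.10, and none was lower. CCT7 was not called when any one sample was left out (adjusted p up to 0.14 over all alternatives). HSF1, the factor that drives the heat shock response, was at 0.0043 (adjusted p = 0.97) and HSF2 at -0.14 (adjusted p = 0.32), and neither was called. These are RNA levels, and the activity of the factors was not measured. The HSF2 value ranged from -0.22 to -0.074 when each sample was left out.

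HSF1 binds heat shock elements, inverted repeats of the bases GAA, in the promoters of heat-inducible genes. The 250 bases upstream of each RefSeq start site (GRCh38.p14) were searched for GAANNTTC and TTCNNGAA, which read the same on both strands, and a gene with several start sites has several windows. Of the 49 genes, 44 had such a window, and 10 (22.7%) held a match, against 14.0% of 27305 symbols and 11.6% of 35116 windows. The 10 were DNAJA1, DNAJB1, DNAJB4 and BAG2, which were lower, and DNAJA4, DNAJB6, DNAJB7, DNAJC15, HSP90AA1 and HSP90AB1, which were not called. Of all 44 genes with a window, 12 were lower, and whether matches and calls go together was not tested. Overlapping matches that make 3 units were found in DNAJB6, HSP90AA1 and HSP90AB1 (6.82% of the 44, against 0.557% of symbols). Of 55 partner genes with a window, 17 (30.9%) held a match. Of these 17 partner genes, 7 were lower, 2 higher, 6 not called and 2 not tested, while 13 of all 55 were lower. Their 3-unit matches (7.27% of the 55) lay in CHORDC1 and HSPA8, which were lower, HSPD1, which was higher, and HSPA6, which was not called. The endoplasmic reticulum stress element was found in none of the 44 and in 0.0916% of symbols, among them HSPA5 and HSP90B1. A match is a description of these letters, not a site, and a missing match says only that the letters are not in the window. The following stretches set DNAJB1 and DNAJB4, which were lower, beside DNAJB6 and HSP90AB1, which hold 3 overlapping units and were not called, with the matched bases in capitals. They come from RefSeq and run 5′ to 3′ on the strand of the gene, upstream of a start site that in each case lies inside the gene as the deposited table gives it.
DNAJB1: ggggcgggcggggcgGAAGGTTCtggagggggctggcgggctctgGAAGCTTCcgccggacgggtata
DNAJB4: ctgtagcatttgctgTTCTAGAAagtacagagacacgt
DNAJB6: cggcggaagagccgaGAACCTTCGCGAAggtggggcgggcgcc
HSP90AB1: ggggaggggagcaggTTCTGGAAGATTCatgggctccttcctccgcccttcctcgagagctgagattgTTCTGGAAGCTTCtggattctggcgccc
They lie at chr19:14518422-14518489 (DNAJB1, minus strand), chr1:78004826-78004863 (DNAJB4, plus strand), chr7:157336858-157336900 (DNAJB6, plus strand) and chr6:44247763-44247858 (HSP90AB1, plus strand). The first match begins 77 bases before the start site in DNAJB1, 98 in DNAJB4, 131 in DNAJB6 and 165 in HSP90AB1, which has 4 matches.

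Several of these genes overlap another gene on the opposite strand, and the sources used here do not say whether strand was used in the counting, so reads in the overlap cannot be told apart. DNAJB11 (13930 counts on average) overlaps TBCCD1 (1209 counts), which was itself lower at -0.35, and BAG2 (7262 counts) overlaps RAB23 (1333 counts), lower at -0.36. DNAJB1 overlaps TECR, DNAJC9 overlaps FAM149B1, DNAJC2 overlaps PMPCB and PSMC2, DNAJC7 overlaps CNP and NKIRAS2, and DNAJC16 overlaps AGMAT, and none of these neighbours was called. The log2FC values of these neighbours were -0.11 for TECR, -0.04 for FAM149B1, -0.04 for PMPCB, 0.11 for PSMC2, 0.09 for CNP, -0.08 for NKIRAS2 and 0.08 for AGMAT. PMPCB (7002 counts on average) and PSMC2 (9824 counts) exceeded DNAJC2 (5223 counts). The counts here are of whole genes, and the overlap is 17223 bases for PMPCB, 545 for PSMC2, 1320 for CNP and 9995 for NKIRAS2. CNP had 4420 counts and NKIRAS2 2625 beside 7839 for DNAJC7, and AGMAT had 883 beside 1152 for DNAJC16. TECR had 6310 counts beside 12057 for DNAJB1, and FAM149B1 had 1264 beside 7410 for DNAJC9. WDR61, with 4856 counts, overlaps DNAJA4, with 31.7.

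Markers of other cell types were low, but some moved with the groups. The leukocyte markers summed to 10.8, 10.7 and 11.1 FPKM in controls and 16.9, 18.5 and 16.9 FPKM after knockdown, of which CD68, a lysosomal protein of macrophages and other cells, made up nearly all, while PTPRC had 0 to 8 counts. The fibroblast markers summed to 9.41, 7.9 and 8.33 FPKM and to 9.85, 10.05 and 9.61 FPKM, mostly COL1A1, and the endothelial markers to 1.79, 1.91 and 2.06 FPKM and to 1.43, 1.61 and 1.69 FPKM, nearly all from CDH5 and PECAM1. Of the listed markers tested, CD68, COL1A1 and PDGFRB were called higher and CDH5, APOB and SERPINA1 lower. The part of these markers, and of the deeper sequencing of the knockdown samples, in the results was not tested.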

How the data were processed

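Total RNA of LM3 cells was sequenced on an Illumina NovaSeq instrument, in 3 vector control and 3 ZNF706 knockdown samples. Per the labels, the submitters' processing notes name cutadapt 1.9, FastQC and GRCh38, and the study's methods name HISAT2 for mapping. The counting program, its handling of strand and the annotation release are not given in the sources used here. The authors deposited unnormalized read counts and FPKM values for 33007 genes, of which 1688 had no count, and all per-sample columns were used.

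The quasi-likelihood test of edgeR 4.0.16 (R 4.3.3; glmQLFit, glmQLFTest) was applied to counts after filterByExpr and TMM scaling. Group was the single term, and p-values were adjusted over 18390 genes. A standard error is |log2FC| divided by the root of F. The study's methods name DESeq2, which was run as an alternative (version 1.42.0). An exact permutation test of 3 samples against 3 gives no two-sided p under 0.1. Per gene, chi-square was 12.2 to 21.4 within groups and 45.4 to 53.3 across them, so no sample was a repeat of another library.

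Genes named are those called among the set, the HSP90, BAG and DNAJA genes, DNAJB1, DNAJB6 and DNAJC7, the 12 called partners with the largest change, and HSF1, HSF2, HSPA8 and STUB1. Others were named after their values were seen. The members, lists and tests were chosen with earlier results of these data known. HSPA14, which is on 2 rows, was left out of its list. The alternatives were DESeq2, DESeq2 size factors, library size alone, no filter, a minimum mean count of 50, a term for the replicate number, each sample left out, limma 3.58.1 on log2(FPKM + 0.1), and reads on pseudogene copies added to their genes. The fit was tested on simulated data.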

Additional observations from a re-analysis of the deposited data

How the results depend on the processing

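The lower calls among the 47 genes stayed between 11 and 13 under the alternatives, and the higher calls were less stable. They numbered 7 with scaling by library size alone, 6 with limma on FPKM, 5 with DESeq2, 3 with copies summed, 2 with no filter, 2 with the replicate number as a block and from 1 to 4 when each sample was left out, against 4. The higher partner genes, 9 in number, came to 16 with scaling by library size alone, 13 with limma on FPKM, 11 with DESeq2, with a mean count of at least 50 and with the replicate block, 5 with no filter and 5 to 8 with each sample left out. The genes past the study's criteria, 8 in number, came to 5 with limma on FPKM, 6 with scaling by library size alone, 9 with DESeq2, with its size factors and with no filter, and 8 to 11 with each sample left out. The genes called in the whole table numbered from 2648 to 3424 with each sample left out, against 4192. Genes near 0 changed sign. The log2FC of HSP90AB1 was 0.019 with scaling by library size alone and 0.014 with limma on FPKM, where the median of all genes also moved up, from 0.0095 to 0.063 and 0.052. With each sample left out, that of BAG4 ranged from -0.016 to 0.050 and that of HSF1 from -0.044 to 0.039. The cause of the other changes was not tested.

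Samples with the same number deviated together weakly or not at all over all genes (correlations of 0.049, -0.00051 and 0.092). Pairs with different numbers ranged from -0.078 to 0.032. The labels do not pair the samples, and whether same-numbered samples share a batch was not tested. Among the 47 genes the replicate block lost 2 calls, DNAJC7 and DNAJC19. In the whole table it gave 4361 calls, against 4192. The standard error was 0.052 with the block and 0.075 without it for DNAJB1, but 0.057 and 0.054 for DNAJC19. Depth limits DNAJA4, DNAJB3, DNAJB7 and DNAJB13, for which a change was not detectable at these low counts.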
